A study of Mus musculus with 15 samples.

Results

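The 38 genes described here encode proteins of the G2 phase and of mitosis, from the kinase that starts mitosis to the proteins that separate the daughter cells. They were chosen by symbol for their known function, with earlier results of these data known, and all 38 were found among the 24819 genes of each deposited table. RNA was sequenced from E14 cells, a line of mouse embryonic stem cells grown on gelatin in serum with leukemia inhibitory factor, after transfection of siRNA against 1 of 4 proteins of the large ribosomal subunit. The groups were siRpl11, siRpl14, siRpl18 and siRpl23, each named for the gene that was knocked down, and siNT, which received a non-targeting siRNA and is the control of all 4. Every group had 3 libraries and the same transfection protocol is stated for all. Sample titles state 48 h, whereas the treatment protocol states 3 days of knockdown, and this was not settled. E14 is a single established line and siRNA knockdown is transient and partial. Nothing in the labels tells whether replicates came from separate cultures, so the p-values here reflect library-to-library spread, which may be technical.

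Entry into mitosis depends on cyclin-dependent kinase 1 bound to a B-type cyclin, which the Cdc25 phosphatases activate. The spindle is then built, kinetochores capture its microtubules, and the spindle checkpoint holds back the anaphase-promoting complex until every chromosome is attached. Most of these genes are transcribed in a burst late in each cell cycle. In other cell systems many of them are known targets of the activators B-Myb and FoxM1 and of the repressive DREAM complex, which acts through a promoter element called the cell cycle genes homology region (CHR) and is known to be engaged when p53 is active. Embryonic stem cells cycle rapidly and are rich in these transcripts.

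Promoter sequence was examined because the CHR and the CCAAT box, bound by NF-Y, are the textbook elements of this gene class. RefSeq promoters (mouse build GRCm38.p6, from 250 bases before to 50 after the annotated start) were matched by symbol for 31 of the 38 genes. The searched letters were TTTGAA and TTTAAA, the usual CHR cores, and CCAAT, on both strands, so that TTCAAA and ATTGG also count, and matches of different motifs may share bases. At least 1 of the CHR cores was present in 26 of 31 genes (83.9%), against 30.6% of 27025 genes with such a window. CCAAT was present in 25 of 31 (80.6%), against 41.1% of all genes, and both elements were present in 22 of 31 (71.0%), against 12.2%. A match is a description of letters and not evidence of a bound site. The 120 bases before the start are shown for 5 genes whose RNA was lower in the knockdowns and for 2, Cdc20 and Ube2c, whose RNA was not, with the matches in capitals. The 7 windows are chr10:69352913-69353032, minus strand (Cdk1), chr13:100786487-100786606, minus strand (Ccnb1), chr9:70421555-70421674, minus strand (Ccnb2), chr7:122159315-122159434, plus strand (Plk1), chr11:99024190-99024309, minus strand (Top2a), chr4:118437344-118437463, minus strand (Cdc20) and chr2:164769809-164769928, plus strand (Ube2c).
Cdk1: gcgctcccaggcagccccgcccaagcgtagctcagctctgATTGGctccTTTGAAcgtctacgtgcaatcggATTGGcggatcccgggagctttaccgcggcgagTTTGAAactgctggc
Ccnb1: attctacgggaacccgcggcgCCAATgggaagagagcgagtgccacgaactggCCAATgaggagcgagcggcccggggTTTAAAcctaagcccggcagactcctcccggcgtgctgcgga
Ccnb2: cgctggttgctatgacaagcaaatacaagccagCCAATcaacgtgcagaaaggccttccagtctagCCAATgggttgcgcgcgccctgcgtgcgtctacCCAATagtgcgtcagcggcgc
Plk1: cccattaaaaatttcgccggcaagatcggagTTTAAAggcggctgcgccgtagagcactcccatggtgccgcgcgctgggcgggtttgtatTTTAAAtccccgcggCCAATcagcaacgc
Top2a: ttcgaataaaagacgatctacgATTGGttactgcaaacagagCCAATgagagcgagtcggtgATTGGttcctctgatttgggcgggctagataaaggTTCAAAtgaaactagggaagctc
Cdc20: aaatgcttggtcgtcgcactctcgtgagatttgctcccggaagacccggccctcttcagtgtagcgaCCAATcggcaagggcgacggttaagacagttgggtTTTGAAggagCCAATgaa
Ube2c: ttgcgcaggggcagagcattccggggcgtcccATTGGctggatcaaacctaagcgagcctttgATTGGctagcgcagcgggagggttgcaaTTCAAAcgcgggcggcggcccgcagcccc
Cdk1 holds TTTGAA from -15 to -10 and again from -71 to -66, counted from the start. Plk1 and Ccnb1 hold TTTAAA, nearest the start at -29 to -24 in Plk1 and at -42 to -37 in Ccnb1. Top2a holds the reverse form TTCAAA at -23 to -18. In Ccnb2 the printed stretch holds 3 CCAAT boxes and no CHR core, and its TTTGAA matches lie at -167 to -162 and at 5 to 10. Cdc20 holds TTTGAA at -18 to -13 and Ube2c holds the reverse form at -29 to -24, so these elements were found both in genes that were lower and in genes that were not.

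Values are FPKM (fragments per kilobase of transcript, scaled to the mapped fragments of a library) as deposited, which corrects for transcript length. Replicates 1 and 2 of all 5 groups shared 1 normalized table and entered the tests, and the third library of each group was in a separately normalized table and served to compare direction and size. The targeted gene was at 24.0% of siNT for Rpl11, 51.6% for Rpl14, 32.7% for Rpl18 and 36.3% for Rpl23, and at 19.9% to 38.5% in the third libraries. The values hold no absolute depth, and depth relative to siNT replicate 1 was 0.698 to 1.39 in the first table and, relative to siNT there, 1.00 to 1.31 in the second. Across genes, the 2 tested libraries of a group correlated at r = 0.991 to 0.996. All 9 embryonic stem cell markers were detected in every library, and their summed level was 6541 to 7156 FPKM in siRpl11, 5315 to 6408 in siRpl14, 5451 to 6270 in siRpl18 and 5357 to 6417 in siRpl23, against 7200 to 8243 in siNT. Of 9 fibroblast markers, 7 (Col1a1, Col1a2, Col3a1, Postn, Lum, Dcn and S100a4) were under 1 FPKM in all 15 libraries, with 3 to 6 of the 9 listed at 0 in each, and the sum of the 9 was 4.33 to 6.90 FPKM in siRpl11, 9.14 to 11.2 in siRpl14, 8.09 to 11.5 in siRpl18 and 9.33 to 11.6 in siRpl23, against 17.0 to 20.3 in siNT. Most of the fibroblast sum came from 1 gene, Thy1, at 14.6 and 15.05 FPKM in siNT and 3.68 and 5.20 in siRpl11 (replicates 1 and 2). The largest part of the stem cell sum came from Dppa5a, at 4048 and 4350 FPKM in siNT. The part of these marker levels in the results was not tested.

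All 38 mitotic genes exceeded 1 FPKM in every library of the first table, so none entered the test only through the group where it was high. In siNT their levels ran from 12.2 ± 0.145 FPKM for Cdc25c to 222 ± 0.899 FPKM for Ube2c (SD, n = 2), with Ccnb1 at 207, Birc5 at 174.5, Top2a at 152.5 and Cdc20 at 135 FPKM next below the top. In siRpl11, 19 of the 38 were lower than in siNT and 7 were higher, where 43.6% of all 12249 genes tested were lower and 27.3% higher. In siRpl14, 31 were lower and 0 higher (1 was higher at an unadjusted p under 0.05), against 29.5% lower and 33.3% higher among all genes. In siRpl18, 21 were lower and 3 higher, against 34.7% and 32.8% of all genes. In siRpl23, 25 were lower and 2 higher, against 30.8% and 34.9% of all genes. The 2 higher genes of siRpl23 became 1 without siNT replicate 1, siRpl23 replicate 1 or either siRpl14 library, and siRpl14 had 1 higher gene without either siRpl18 library. A gene was called at a Benjamini-Hochberg adjusted p under 0.05 from limma, fitted to log2(FPKM + 1) of all genes. The 4 comparisons share their siNT libraries and are given side by side for that reason. In bulk RNA, fewer cells in G2 or mitosis and less of these transcripts per cell cannot be told apart.

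The sizes of these differences were modest. The median log2 fold change of the 38 genes was -0.11 in siRpl11, -0.30 in siRpl14, -0.14 in siRpl18 and -0.21 in siRpl23, beside medians of all genes tested of -0.11, 0.02, -0.02 and 0.02. In siRpl11 the share of lower genes among the 38 was thus close to that of all genes, and the median equalled theirs. Scaling mattered for siRpl11. Quantile normalization moved the median of all genes in siRpl11 by 0.12, to 0.01, and gave 20 of the 38 lower and 7 higher, against 33.6% lower and 34.9% higher among all genes. Median-ratio scaling gave 13 lower and 12 higher in siRpl11, against 37.4% and 33.8% of all genes, and a median of -0.02 for the 38 genes. The lower calls it ended in siRpl11 were those of Ccnb1, Ccna2, Nek2, Cenpe, Birc5 and Anln, all between -0.02 and -0.08 on that scale. In siRpl14, siRpl18 and siRpl23 more of the 38 genes were lower than higher under the deposited scale, quantile normalization and median-ratio scaling. The median of all genes was -0.03 in each with quantile normalization. With median-ratio scaling it was -0.004 in siRpl14, -0.007 in siRpl18 and 0.0002 in siRpl23. For these knockdowns the share of lower genes was set beside that of all genes on the deposited scale only.

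**Figure D1:**
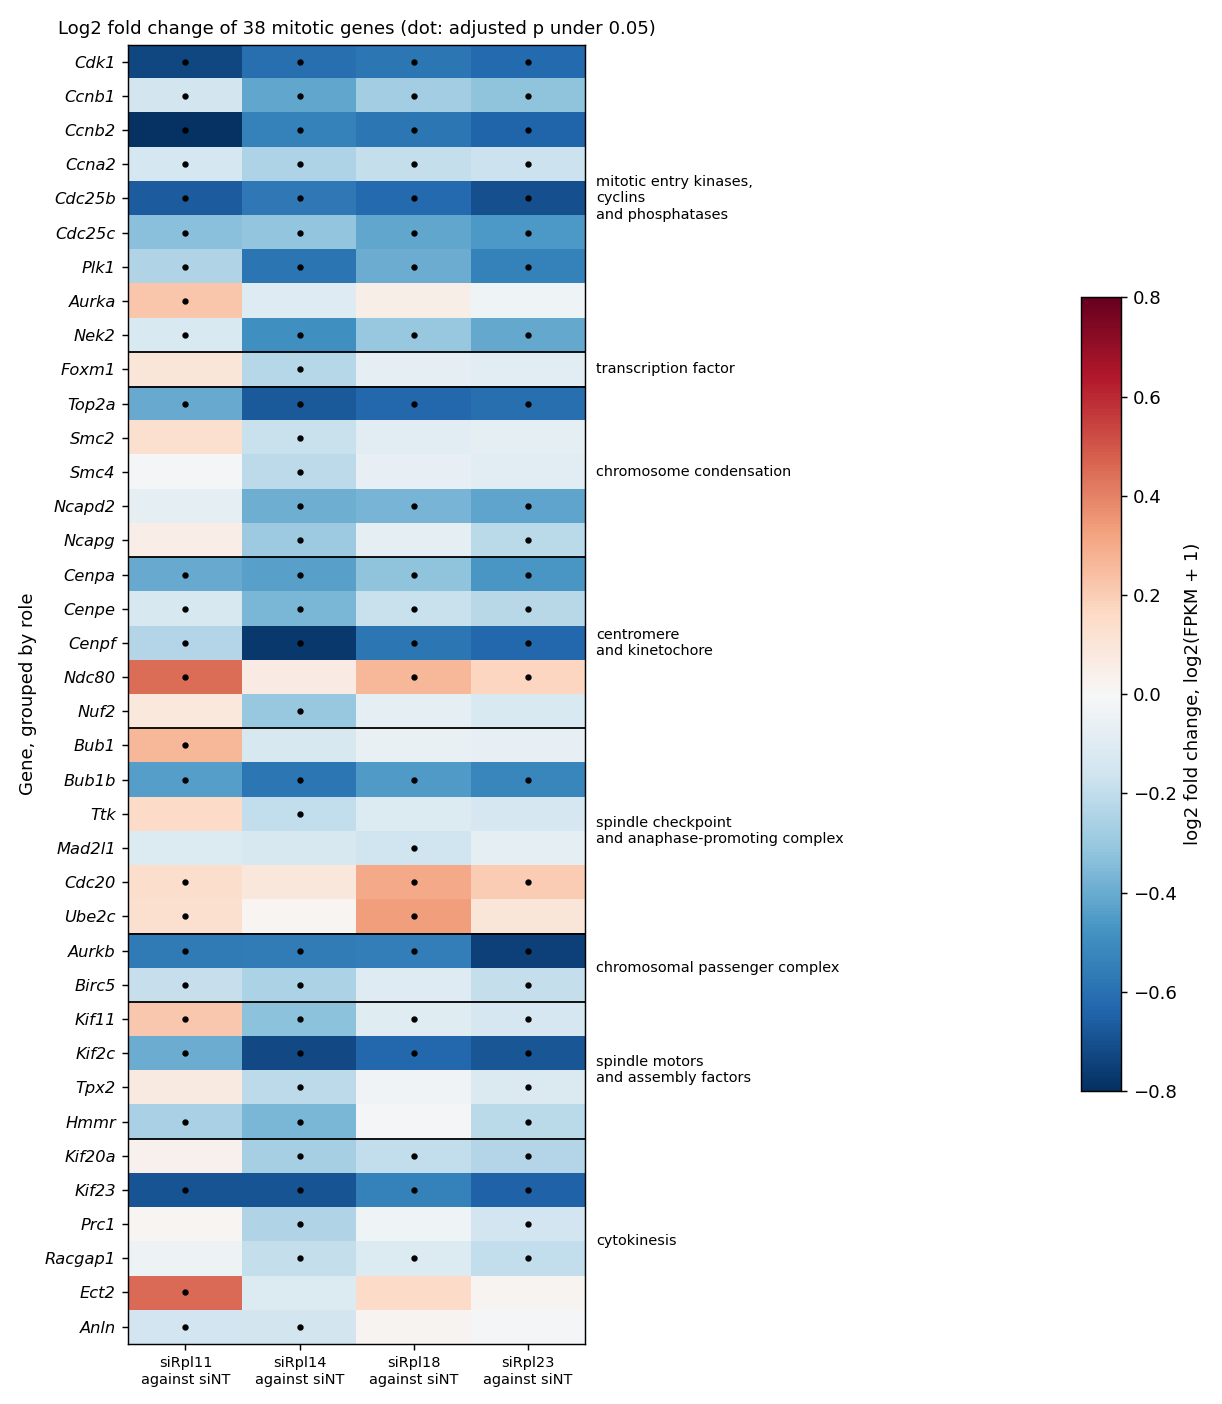
Log2 fold change, on the log2(FPKM + 1) scale, of each of the 38 mitotic genes (vertical axis, grouped by role) in siRpl11, siRpl14, siRpl18 and siRpl23 against siNT (horizontal axis), from replicates 1 and 2. Dots mark an adjusted p under 0.05; blue is lower and red is higher than siNT, and the siRpl14 column holds no dot on red.

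The 9 genes for kinases, cyclins and phosphatases of mitotic entry were mostly lower. In each comparison 8 of the 9 were lower, against 43.6% of all genes in siRpl11, 29.5% in siRpl14, 34.7% in siRpl18 and 30.8% in siRpl23. The exception was Aurka. Their median log2 fold change was -0.24 in siRpl11, -0.49 in siRpl14, -0.40 in siRpl18 and -0.46 in siRpl23. Of the 8 siRpl11 calls, those of Ccnb1, Ccna2 and Nek2 ended with median-ratio scaling, and Cdc25c was above siNT in the third siRpl11 library. Cdk1 encodes the kinase that drives cells into mitosis. Its 2 tested libraries per group were at 37.9 and 39.2 FPKM in siRpl11, 40.5 and 43.5 in siRpl14, 41.7 and 43.9 in siRpl18 and 40.3 and 42.6 in siRpl23, against 62.9 and 65.9 in siNT. Every knockdown library was below both siNT libraries, and the log2 fold changes were -0.73 in siRpl11, -0.61 in siRpl14, -0.58 in siRpl18 and -0.62 in siRpl23 (SE 0.05 each, with limma adjusted p of 1.08e-06, 5.05e-06, 5.43e-06 and 3.46e-06 in that order). Cdk1 in the knockdowns was thus at 59.8% (siRpl11) to 66.5% (siRpl18) of its siNT mean. The third libraries gave 24.6 FPKM in siRpl11, 25.9 in siRpl14, 29.5 in siRpl18 and 25.6 in siRpl23, against 39.3 in siNT, all 4 again below siNT though at a lower level overall in that table.

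The B-type cyclins are the partners of Cdk1, and their fold changes differed in size. Ccnb2 was at 43.0 and 45.0 FPKM in siRpl11, 51.0 and 54.1 in siRpl14, 49.9 and 52.4 in siRpl18 and 46.5 and 51.5 in siRpl23, against 76.3 and 77.5 in siNT. No knockdown library overlapped siNT, and the log2 fold changes were -0.79 in siRpl11, -0.54 in siRpl14, -0.58 in siRpl18 and -0.64 in siRpl23 (SE 0.06 each, with limma adjusted p of 9.86e-07, 1.8e-05, 8.94e-06 and 4.7e-06 in that order). The third libraries had Ccnb2 lower by less, with differences of -0.41 in siRpl11, -0.24 in siRpl14, -0.07 in siRpl18 and -0.27 in siRpl23. Ccnb1, the major mitotic cyclin and more abundant per length than Ccnb2 in siNT (means of 207 and 76.9 FPKM), was at 182 and 192 FPKM in siRpl11, 149 and 161 in siRpl14, 161 and 179 in siRpl18 and 164 and 166 in siRpl23, against 202 and 212 in siNT. Its log2 fold changes were -0.14 in siRpl11, -0.41 in siRpl14, -0.28 in siRpl18 and -0.32 in siRpl23 (SE 0.06 each, with limma adjusted p of 0.0489, 0.000166, 0.00183 and 0.000795 in that order), so that the difference in siRpl11 was the smallest of the 4 and only just within the threshold. That siRpl11 call ended with no filter on low values (adjusted p = 0.087), with median-ratio scaling (-0.05, adjusted p = 0.501) and with any 1 of the siNT, siRpl11 or siRpl23 libraries left out. The third libraries of Ccnb1 gave 185 FPKM in siRpl11, 159 in siRpl14, 168 in siRpl18 and 163 in siRpl23, against 213 in siNT, with siNT highest. Ccna2, the cyclin of S and G2 phase, was lower by smaller amounts, between -0.14 in siRpl11 and -0.25 in siRpl14. Ccnb1 and Ccnb2 each have an annotated processed pseudogene, between which reads could be split, so their levels are uncertain.

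Both Cdc25 phosphatases, which remove inhibitory phosphates from Cdk1, were lower in every comparison of replicates 1 and 2. Cdc25b was at 11.1 and 10.7 FPKM in siRpl11, 12.1 and 11.2 in siRpl14, 10.6 and 11.9 in siRpl18 and 10.5 and 10.6 in siRpl23, against 18.5 and 17.1 in siNT. All 8 knockdown libraries were below both siNT libraries, and the log2 fold changes were -0.66 in siRpl11, -0.57 in siRpl14, -0.62 in siRpl18 and -0.70 in siRpl23 (SE 0.07 each, with limma adjusted p of 1.32e-05, 5.14e-05, 2.35e-05 and 1.04e-05 in that order). The third libraries had Cdc25b at 8.86 FPKM in siRpl11, 9.71 in siRpl14, 12.3 in siRpl18 and 10.4 in siRpl23, against 12.8 in siNT, so that siRpl18 lay close to siNT there. Cdc25c had log2 fold changes from -0.32 in siRpl14 to -0.46 in siRpl23, whereas the third libraries were above siNT in siRpl11, siRpl18 and siRpl23. Its exons share 12.7% of their bases with a gene on the other strand, and the strand setting of the counting is not given in the sources used here.

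Plk1 encodes Polo-like kinase 1, which acts from mitotic entry to cytokinesis. Its libraries were at 90.6 and 84.9 FPKM in siRpl11, 68.7 and 69.3 in siRpl14, 79.3 and 77.8 in siRpl18 and 71.6 and 70.8 in siRpl23, against 107 and 101 in siNT. All knockdown libraries were below both siNT libraries, with siRpl11 nearest to them, and the log2 fold changes were -0.24 in siRpl11, -0.58 in siRpl14, -0.40 in siRpl18 and -0.54 in siRpl23 (SE 0.04 each, with limma adjusted p of 0.00061, 1.93e-06, 2.17e-05 and 2.87e-06 in that order). Plk1 in the third libraries was at 105 FPKM in siRpl11, 75.3 in siRpl14, 95.3 in siRpl18 and 81.8 in siRpl23, against 106 in siNT, where siRpl11 and siNT were nearly equal. Nek2, a centrosomal kinase, had log2 fold changes of -0.12 in siRpl11, -0.49 in siRpl14, -0.30 in siRpl18 and -0.41 in siRpl23, also smallest in siRpl11. Aurka, the Aurora kinase of centrosomes and spindle poles, differed from the other 8. It was at 98.1 and 104 FPKM in siRpl11, 76.6 and 85.0 in siRpl14, 87.3 and 91.8 in siRpl18 and 83.3 and 85.7 in siRpl23, against 85.7 and 87.4 in siNT. Both siRpl11 libraries lay above siNT and both libraries of siRpl14 and siRpl23 at or below it without passing the threshold, whereas siRpl18 overlapped siNT. The log2 fold changes were 0.22 in siRpl11, -0.10 in siRpl14, 0.05 in siRpl18 and -0.03 in siRpl23 (SE 0.06 each, with limma adjusted p of 0.00442, 0.136, 0.458 and 0.594 in that order), and only the first passed the threshold. The third libraries of Aurka gave 88.1 FPKM in siRpl11, 75.0 in siRpl14, 83.1 in siRpl18 and 73.2 in siRpl23, against 81.1 in siNT, with siRpl11 highest.

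**Figure D2:**
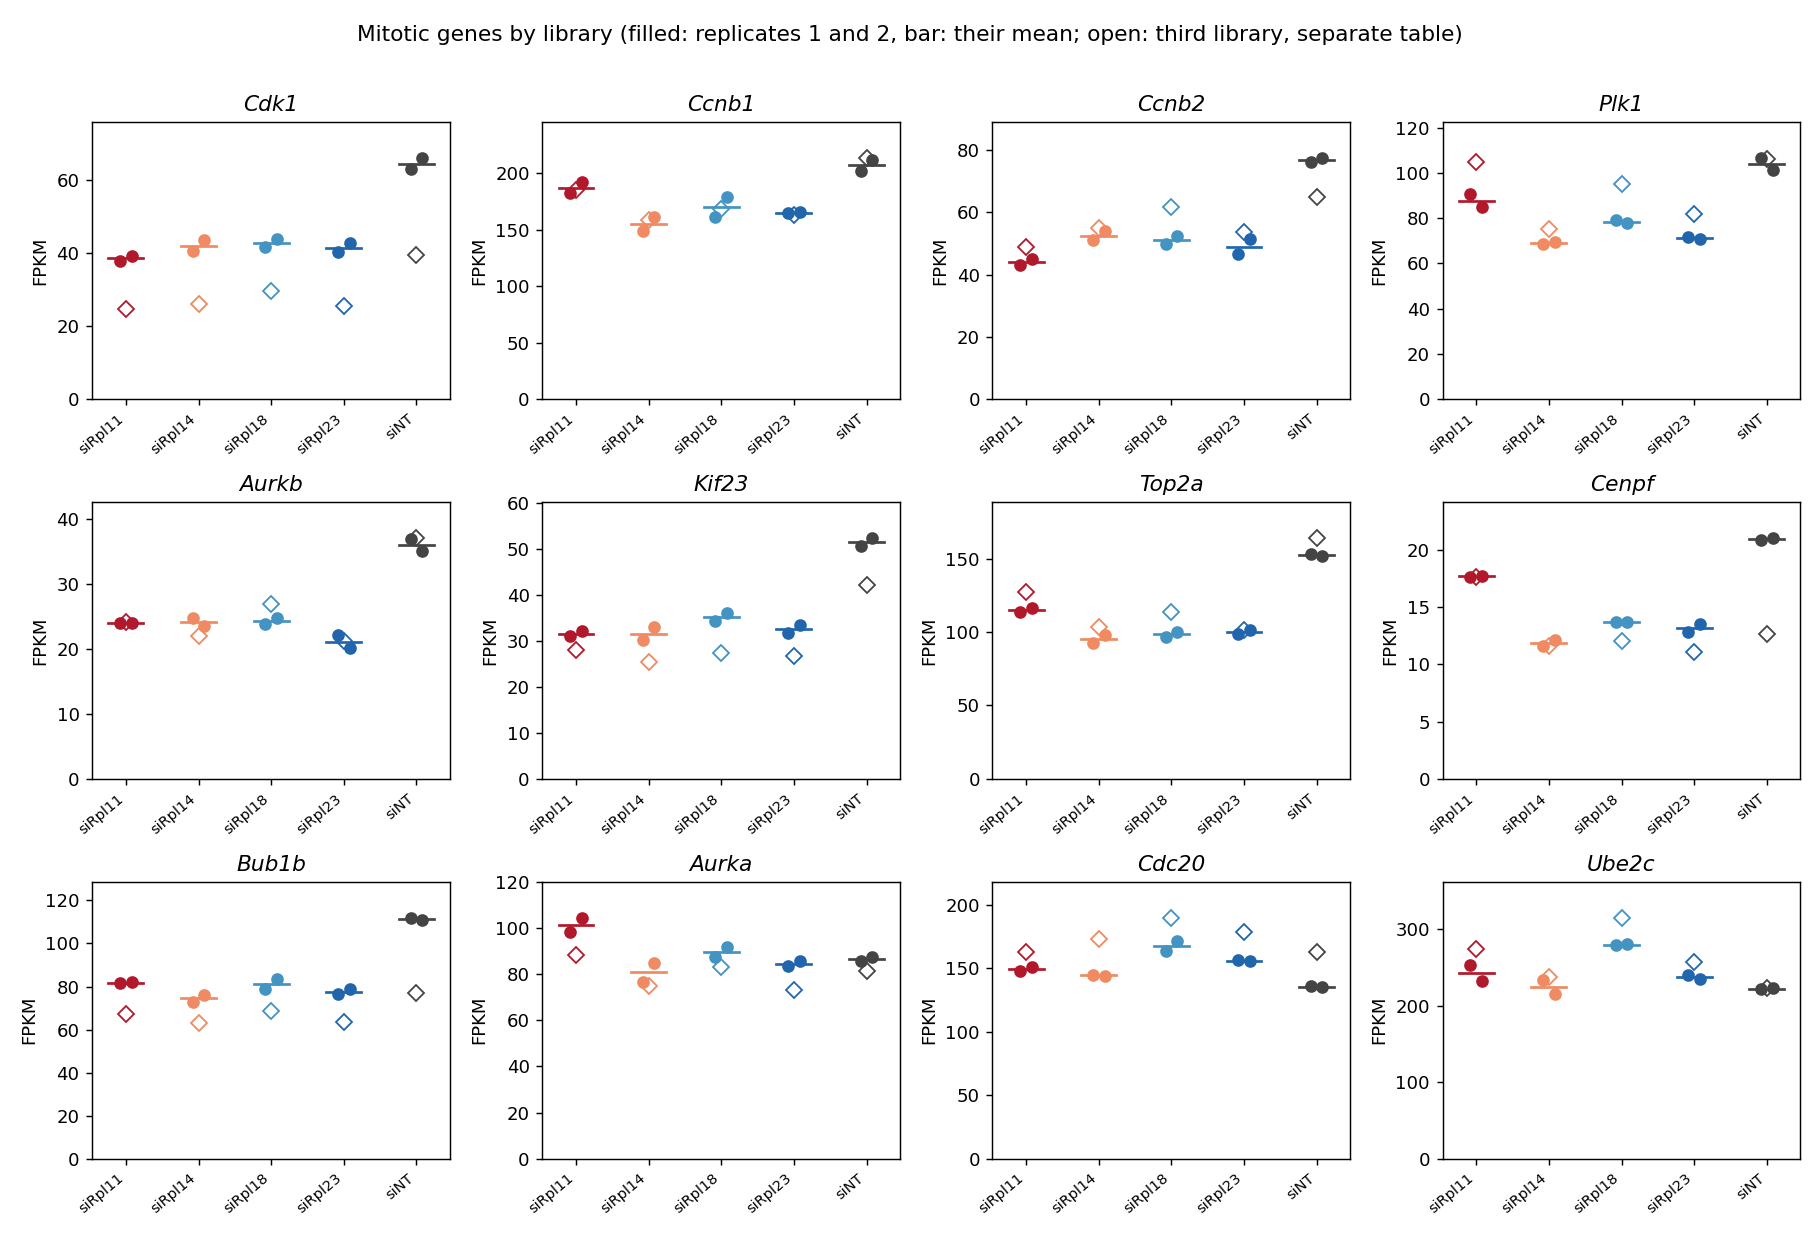
FPKM (vertical axes, from 0) of 12 mitotic genes in each library of siRpl11, siRpl14, siRpl18, siRpl23 and siNT. Filled circles are replicates 1 and 2 with their mean as a bar, and open diamonds are the third libraries, whose table was normalized separately; Cdk1, Ccnb2, Aurkb, Kif23 and Top2a show every knockdown circle below the siNT circles, whereas Cdc20 and Ube2c do not.

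Foxm1, the transcription factor that activates many G2 and M genes, passed the threshold only in siRpl14. It was at 19.3 and 17.6 FPKM in siRpl11, 15.2 and 13.8 in siRpl14, 16.8 and 15.8 in siRpl18 and 16.9 and 15.3 in siRpl23, against 17.7 and 16.6 in siNT. The siRpl11, siRpl18 and siRpl23 libraries overlapped siNT, and both siRpl14 libraries lay below it. Log2 fold changes were 0.10 in siRpl11, -0.23 in siRpl14, -0.07 in siRpl18 and -0.09 in siRpl23 (SE 0.07 each, with limma adjusted p of 0.246, 0.0192, 0.39 and 0.297 in that order). The siRpl14 call ended when siNT replicate 1 (adjusted p = 0.111) or siRpl14 replicate 2 (adjusted p = 0.139) was left out, and in the third libraries Foxm1 was at 18.3 FPKM in siRpl11, 15.0 in siRpl14, 15.7 in siRpl18 and 15.8 in siRpl23, against 15.9 in siNT.

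Chromosome condensation was represented by DNA topoisomerase II alpha (Top2a), which untangles sister DNA, and by the condensin subunits Smc2, Smc4, Ncapd2 and Ncapg. All 5 were lower in siRpl14, 3 in siRpl23, 2 in siRpl18 and 1 in siRpl11. These were 100%, 60%, 40% and 20% of the 5 in that order, beside 29.5%, 30.8%, 34.7% and 43.6% of all genes. The siRpl18 share was thus near that of all genes and the siRpl11 share below it. Top2a was at 114 and 116 FPKM in siRpl11, 92.4 and 98.1 in siRpl14, 96.8 and 100.3 in siRpl18 and 98.8 and 102 in siRpl23, against 153 and 152 in siNT. No knockdown library reached the siNT level, and the log2 fold changes were -0.40 in siRpl11, -0.67 in siRpl14, -0.63 in siRpl18 and -0.60 in siRpl23 (SE 0.04 each, with limma adjusted p of 1.46e-05, 5.91e-07, 7.62e-07 and 1.1e-06 in that order). The third libraries of Top2a were again all below siNT, with 127 FPKM in siRpl11, 103 in siRpl14, 114 in siRpl18 and 101 in siRpl23, against 164 in siNT. The condensin subunits gave fewer calls. Ncapd2, of condensin I, had log2 fold changes of -0.08 in siRpl11, -0.39 in siRpl14, -0.37 in siRpl18 and -0.42 in siRpl23, of which the siRpl11 value did not pass. Ncapg, of the same complex, had 0.05 in siRpl11, -0.29 in siRpl14, -0.07 in siRpl18 and -0.22 in siRpl23, with siRpl14 and siRpl23 past the threshold, and 13.4% of its exonic bases are shared with Lcorl on the other strand. The core subunits Smc2 (-0.18) and Smc4 (-0.21) were lower only in siRpl14, and in the other 3 comparisons their values lay between -0.09 and 0.13 with no call.

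At the centromere and kinetochore, 5 genes were measured, and they went in different directions. Cenpa, the histone H3 variant that marks centromeres, was lower in each comparison, with log2 fold changes of -0.40 in siRpl11, -0.43 in siRpl14, -0.32 in siRpl18 and -0.47 in siRpl23. The third libraries gave differences of -0.37, -0.39, -0.39 and -0.33 in the same order. Cenpf, a large protein of the outer kinetochore, was at 17.7 and 17.7 FPKM in siRpl11, 11.6 and 12.1 in siRpl14, 13.7 and 13.7 in siRpl18 and 12.8 and 13.5 in siRpl23, against 20.9 and 21.0 in siNT. The siRpl11 libraries were below siNT and well above those of the other knockdowns, and the log2 fold changes were -0.23 in siRpl11, -0.77 in siRpl14, -0.58 in siRpl18 and -0.63 in siRpl23 (SE 0.05 each, with limma adjusted p of 0.00149, 5.67e-07, 3.11e-06 and 1.94e-06 in that order). In the third libraries, however, Cenpf was at 17.7 FPKM in siRpl11, 11.6 in siRpl14, 12.0 in siRpl18 and 11.1 in siRpl23, against 12.6 in siNT, where siRpl11 was highest and siNT lay close to the other 3. With all 15 libraries the siRpl11 value of Cenpf was -0.0038 (adjusted p = 0.979). Cenpe, the kinetochore motor, had log2 fold changes of -0.13 in siRpl11, -0.36 in siRpl14, -0.18 in siRpl18 and -0.22 in siRpl23, all called lower, but the third library was above siNT in all 4.

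Ndc80 and Nuf2 form 1 dimer within the complex that binds spindle microtubules, and their RNA levels gave different calls. Ndc80 was at 31.9 and 29.6 FPKM in siRpl11, 23.1 and 23.6 in siRpl14, 26.2 and 27.7 in siRpl18 and 26.0 and 24.4 in siRpl23, against 20.9 and 23.7 in siNT, highest in siRpl11. Its log2 fold changes were 0.45 in siRpl11, 0.06 in siRpl14, 0.27 in siRpl18 and 0.17 in siRpl23 (SE 0.07 each, with limma adjusted p of 0.000155, 0.414, 0.00486 and 0.0414 in that order), and the third libraries gave 37.3 FPKM in siRpl11, 27.0 in siRpl14, 33.5 in siRpl18 and 30.6 in siRpl23, against 25.6 in siNT, with siNT lowest. The siRpl23 call of Ndc80 ended with quantile normalization (0.10, adjusted p = 0.193) and with median-ratio scaling (0.15, adjusted p = 0.0624). Nuf2 had log2 fold changes of 0.08 in siRpl11, -0.30 in siRpl14, -0.07 in siRpl18 and -0.12 in siRpl23, and only the siRpl14 value, a lower one, passed the threshold.

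Genes of the spindle checkpoint and of the anaphase-promoting complex were called in both directions. Of 6, 1 was lower and 3 higher in siRpl11, 2 lower and 0 higher in siRpl14, 2 lower and 2 higher in siRpl18, and 1 lower and 1 higher in siRpl23. Lower genes were 16.7%, 33.3%, 33.3% and 16.7% of the 6 in that order, beside 43.6%, 29.5%, 34.7% and 30.8% of all genes. Higher genes were 50%, 0%, 33.3% and 16.7%, beside 27.3%, 33.3%, 32.8% and 34.9%. Both shares in siRpl18 and the lower share in siRpl14 were thus near those of all genes. Bub1b, which encodes the checkpoint protein BubR1, was lower in each comparison, with log2 fold changes of -0.44 in siRpl11, -0.58 in siRpl14, -0.46 in siRpl18 and -0.52 in siRpl23. Bub1, its kinase relative, was at 31.8 and 29.4 FPKM in siRpl11, 22.6 and 23.6 in siRpl14, 24.7 and 23.9 in siRpl18 and 23.2 and 25.0 in siRpl23, against 25.9 and 24.7 in siNT. Only siRpl11 stood above siNT, and the log2 fold changes were 0.26 in siRpl11, -0.13 in siRpl14, -0.06 in siRpl18 and -0.07 in siRpl23 (SE 0.06 each, with limma adjusted p of 0.00194, 0.0792, 0.397 and 0.322 in that order). In the third libraries siNT was highest, with Bub1 at 34.8 FPKM in siRpl11, 29.8 in siRpl14, 28.5 in siRpl18 and 27.1 in siRpl23, against 36.5 in siNT, and with all 15 libraries the siRpl11 value no longer passed (0.15, adjusted p = 0.0619). Ttk, the kinase Mps1 that starts checkpoint signalling, was lower only in siRpl14 (-0.20), and Mad2l1, which encodes the checkpoint effector Mad2, was lower only in siRpl18 (-0.16).

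Cdc20 activates the anaphase-promoting complex and Ube2c is the ubiquitin-conjugating enzyme that starts chains for it. Cdc20 was at 148 and 151 FPKM in siRpl11, 145 and 144 in siRpl14, 163 and 171 in siRpl18 and 157 and 155 in siRpl23, against 136 and 135 in siNT. Every knockdown library was above both siNT libraries, and the log2 fold changes were 0.14 in siRpl11, 0.09 in siRpl14, 0.30 in siRpl18 and 0.20 in siRpl23 (SE 0.04 each, with limma adjusted p of 0.00646, 0.0565, 5.34e-05 and 0.000877 in that order). The siRpl14 value passed with quantile normalization (0.13, adjusted p = 0.00577) and with all 15 libraries (0.09, adjusted p = 0.0485). In the third libraries Cdc20 was at 163 FPKM in siRpl11, 173 in siRpl14, 189.7 in siRpl18 and 178 in siRpl23, against 163 in siNT, and siRpl11 was nearly level with siNT. Ube2c, the most abundant of the 38, was at 253 and 233 FPKM in siRpl11, 233 and 215 in siRpl14, 279.6 and 280.3 in siRpl18 and 240.2 and 235 in siRpl23, against 222 and 223 in siNT, with siRpl18 clear of all other groups. Its log2 fold changes were 0.13 in siRpl11, 0.01 in siRpl14, 0.33 in siRpl18 and 0.10 in siRpl23 (SE 0.05 each, with limma adjusted p of 0.0482, 0.842, 0.000238 and 0.12 in that order). The siRpl11 call of Ube2c ended with no filter (adjusted p = 0.0742), with quantile normalization (0.06, adjusted p = 0.365), with only the groups compared (adjusted p = 0.0638) and without either siNT, siRpl18 or siRpl23 library or siRpl11 replicate 1. The third libraries of Ube2c gave 275 FPKM in siRpl11, 237 in siRpl14, 315 in siRpl18 and 258 in siRpl23, against 223 in siNT, again with siRpl18 highest. Of the exonic bases of Ube2c, 22.8% are shared with Tnnc2 on the other strand, so its value is uncertain.

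The chromosomal passenger complex corrects faulty attachments and acts in cytokinesis, and 2 of its subunits were among the 38 genes. Aurkb, its kinase, was at 24.0 and 23.9 FPKM in siRpl11, 24.8 and 23.5 in siRpl14, 23.8 and 24.8 in siRpl18 and 22.1 and 20.1 in siRpl23, against 37.0 and 35.1 in siNT. No knockdown library overlapped siNT, and the log2 fold changes were -0.57 in siRpl11, -0.56 in siRpl14, -0.55 in siRpl18 and -0.75 in siRpl23 (SE 0.06 each, with limma adjusted p of 9.03e-06, 1.37e-05, 1.2e-05 and 1.55e-06 in that order). The third libraries of Aurkb were as clearly apart, at 24.2 FPKM in siRpl11, 22.1 in siRpl14, 26.9 in siRpl18 and 21.2 in siRpl23, against 37.1 in siNT. Birc5, which encodes survivin, was at 151 and 156 FPKM in siRpl11, 143 and 149 in siRpl14, 160.4 and 164 in siRpl18 and 153 and 153 in siRpl23, against 169 and 179.7 in siNT. All 8 knockdown libraries were below siNT, with smaller log2 fold changes than those of Aurkb, at -0.18 in siRpl11, -0.25 in siRpl14, -0.10 in siRpl18 and -0.19 in siRpl23 (SE 0.04 each, with limma adjusted p of 0.00346, 0.000557, 0.0568 and 0.0032 in that order). The siRpl11 call of Birc5 ended with median-ratio scaling (-0.08, adjusted p = 0.114) and with all 15 libraries (-0.10, adjusted p = 0.134), and the third libraries gave 133 FPKM in siRpl11, 105 in siRpl14, 135 in siRpl18 and 121 in siRpl23, against 126 in siNT, where siRpl11 and siRpl18 were above siNT. The 2 Aurora kinase genes therefore differed in direction in siRpl11, with Aurka at 0.22 and Aurkb at -0.57.

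Among spindle motors and assembly factors, all 4 genes were lower in siRpl14 and in siRpl23, against 29.5% and 30.8% of all genes. In siRpl11, 2 were lower and 1 higher (50% and 25%), near the 43.6% and 27.3% of all genes. In siRpl18, 2 were lower (50%) and 0 higher, against 34.7% and 32.8% of all genes. Kif2c, which encodes the microtubule-depolymerizing kinesin MCAK, was at 48.4 and 51.0 FPKM in siRpl11, 37.4 and 41.6 in siRpl14, 40.4 and 43.9 in siRpl18 and 38.5 and 42.7 in siRpl23, against 62.9 and 68.5 in siNT. All knockdown libraries were below siNT, and the log2 fold changes were -0.40 in siRpl11, -0.72 in siRpl14, -0.63 in siRpl18 and -0.68 in siRpl23 (SE 0.07 each, with limma adjusted p of 0.000666, 1.46e-05, 3.09e-05 and 1.89e-05 in that order). Kif2c in the third libraries was at 38.9 FPKM in siRpl11, 34.6 in siRpl14, 34.5 in siRpl18 and 32.4 in siRpl23, against 45.2 in siNT. Kif11, the kinesin Eg5 that pushes spindle poles apart, was called higher in siRpl11 and lower in the other 3, at 0.21 in siRpl11, -0.33 in siRpl14, -0.10 in siRpl18 and -0.14 in siRpl23 (SE 0.04 each, with limma adjusted p of 0.000862, 6.38e-05, 0.0493 and 0.0127 in that order). Its siRpl18 call ended with median-ratio scaling (-0.09, adjusted p = 0.0639). Tpx2, which activates Aurora A on the spindle, was at 75.7 and 74.7 FPKM in siRpl11, 60.7 and 62.7 in siRpl14, 69.5 and 70.8 in siRpl18 and 66.2 and 65.7 in siRpl23, against 71.0 and 72.0 in siNT. Its log2 fold changes were 0.07 in siRpl11, -0.21 in siRpl14, -0.03 in siRpl18 and -0.12 in siRpl23 (SE 0.04 each, with limma adjusted p of 0.104, 0.000686, 0.547 and 0.0188 in that order). The siRpl23 call of Tpx2 ended with all 15 libraries (-0.07, adjusted p = 0.187) and without siNT replicate 2 or either siRpl23 library, and the third libraries were at 66.3 FPKM in siRpl11, 56.6 in siRpl14, 66.5 in siRpl18 and 58.3 in siRpl23, against 57.4 in siNT. Hmmr, a spindle protein and hyaluronan receptor, had log2 fold changes of -0.26 in siRpl11, -0.37 in siRpl14, -0.0076 in siRpl18 and -0.21 in siRpl23, and only siRpl18 gave no call.

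Cytokinesis was covered by 6 genes, and the values of partners within 1 complex differed in size. Kif23 and Racgap1 together form centralspindlin, which organizes the midzone and recruits Ect2. Kif23 was at 31.0 and 32.1 FPKM in siRpl11, 30.2 and 32.9 in siRpl14, 34.2 and 35.9 in siRpl18 and 31.6 and 33.4 in siRpl23, against 50.6 and 52.3 in siNT. No knockdown library came near siNT, and the log2 fold changes were -0.69 in siRpl11, -0.69 in siRpl14, -0.54 in siRpl18 and -0.65 in siRpl23 (SE 0.05 each, with limma adjusted p of 1.89e-06, 2.48e-06, 1.07e-05 and 3.26e-06 in that order). Kif23 was also lower in the third libraries, at 27.9 FPKM in siRpl11, 25.4 in siRpl14, 27.3 in siRpl18 and 26.7 in siRpl23, against 42.1 in siNT. Racgap1 had log2 fold changes of -0.04 in siRpl11, -0.19 in siRpl14, -0.11 in siRpl18 and -0.19 in siRpl23, with no call in siRpl11 and a siRpl18 call that ended with median-ratio scaling (adjusted p = 0.0508). Ect2, the exchange factor that activates RhoA at the cleavage site, was at 63.0 and 62.5 FPKM in siRpl11, 40.5 and 44.1 in siRpl14, 49.4 and 52.0 in siRpl18 and 44.0 and 48.7 in siRpl23, against 43.4 and 47.9 in siNT, and only siRpl11 (0.45 ± 0.07, adjusted p = 0.000137) passed. Kif20a was lower in siRpl14, siRpl18 and siRpl23 (-0.27, -0.19 and -0.23), Prc1, the microtubule bundler of the midzone, in siRpl14 and siRpl23 (-0.24 and -0.15), and Anln, the scaffold anillin, in siRpl11 and siRpl14 (-0.15 in both). In the third libraries Prc1 was above siNT in both siRpl14 (0.03) and siRpl23 (0.07), opposite to its calls. Exons of Kif20a share 29.3% of their bases with Cdc23, and those of Prc1 share 11.1% with Rccd1, each on the other strand.

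The profile of siRpl11 was set against the mean of the other 3 knockdowns, a comparison that does not use siNT. Of the 38 genes, 22 were higher and 3 lower in siRpl11, where 18.4% of all genes were higher and 44.2% lower. The median difference was 0.17 for the 38 genes and -0.12 for all genes tested. Cenpf (0.43 ± 0.04, adjusted p = 7.38e-06), Ect2 (0.43 ± 0.05, adjusted p = 6.2e-05) and Kif11 (0.40 ± 0.03, adjusted p = 3.4e-06) had the largest differences, ± SE on the log2 scale. Next came Bub1 at 0.35 ± 0.05 (adjusted p = 0.000107) and Ncapd2 at 0.31 ± 0.04 (adjusted p = 4.02e-05). Higher values in siRpl11 were also found for Plk1 (0.27 ± 0.04, adjusted p = 0.000107), Top2a (0.23 ± 0.03, adjusted p = 0.000241), Aurka (0.25 ± 0.04, adjusted p = 0.000734), Kif2c (0.28 ± 0.06, adjusted p = 0.00196), Foxm1 (0.23 ± 0.06, adjusted p = 0.00677), Ccnb1 (0.19 ± 0.05, adjusted p = 0.00523) and Tpx2 (0.19 ± 0.03, adjusted p = 0.000347). Those that were lower in siRpl11 were Ccnb2 (-0.20 ± 0.05, adjusted p = 0.00281), Cdk1 (-0.12 ± 0.04, adjusted p = 0.0266) and Anln (-0.10 ± 0.04, adjusted p = 0.0254). No call was made for Cdc25b (-0.03), Kif23 (-0.06), Aurkb (0.05), Birc5 (-0.00069), Cdc20 (-0.06) or Ube2c (-0.02).

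By role, the genes higher in siRpl11 than in the other knockdowns were 4 of 5 for condensation, 4 of 5 for the kinetochore, 3 of 4 for the spindle, 4 of 6 for cytokinesis, 4 of 9 for mitotic entry and 2 of 6 for the checkpoint and anaphase-promoting complex. Foxm1 was also higher, and 0 of 2 passenger complex genes were called. These stand beside 18.4% of all genes called higher. Lower genes were 2 of 9 for mitotic entry and 1 of 6 for cytokinesis, beside 44.2% of all genes. In the third libraries all 22 of the genes called higher were again higher in siRpl11 than in the mean of the other 3, and all 3 called lower were lower, beside 96.7% of all genes called in either direction. Scaling moved these differences. Quantile normalization shifted the median of all genes in this comparison by 0.17, to 0.05, and turned all-gene calls to 34.8% higher and 26.5% lower, and median-ratio scaling to 28.6% higher and 34.1% lower, with a median of 0.28 for the 38 genes. The calls of Cdk1 ended with quantile normalization (-0.06, adjusted p = 0.211) and with median-ratio scaling (-0.02, adjusted p = 0.777), and that of Ccnb2 ended with median-ratio scaling (-0.10, adjusted p = 0.103). The call of Anln ended with quantile normalization (-0.07, adjusted p = 0.087) and its sign turned with median-ratio scaling (0.0051, adjusted p = 0.91). The Cdk1 call also ended without either siRpl11 library or without replicate 2 of siRpl14 or siRpl23, that of Ccnb1 ended without siRpl11 replicate 2 (0.16, adjusted p = 0.0714) and that of Foxm1 without siRpl11 replicate 1 (0.16, adjusted p = 0.104). The siRpl11 comparison with siNT and with the other knockdowns share the siRpl11 libraries.

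**Figure D3:**
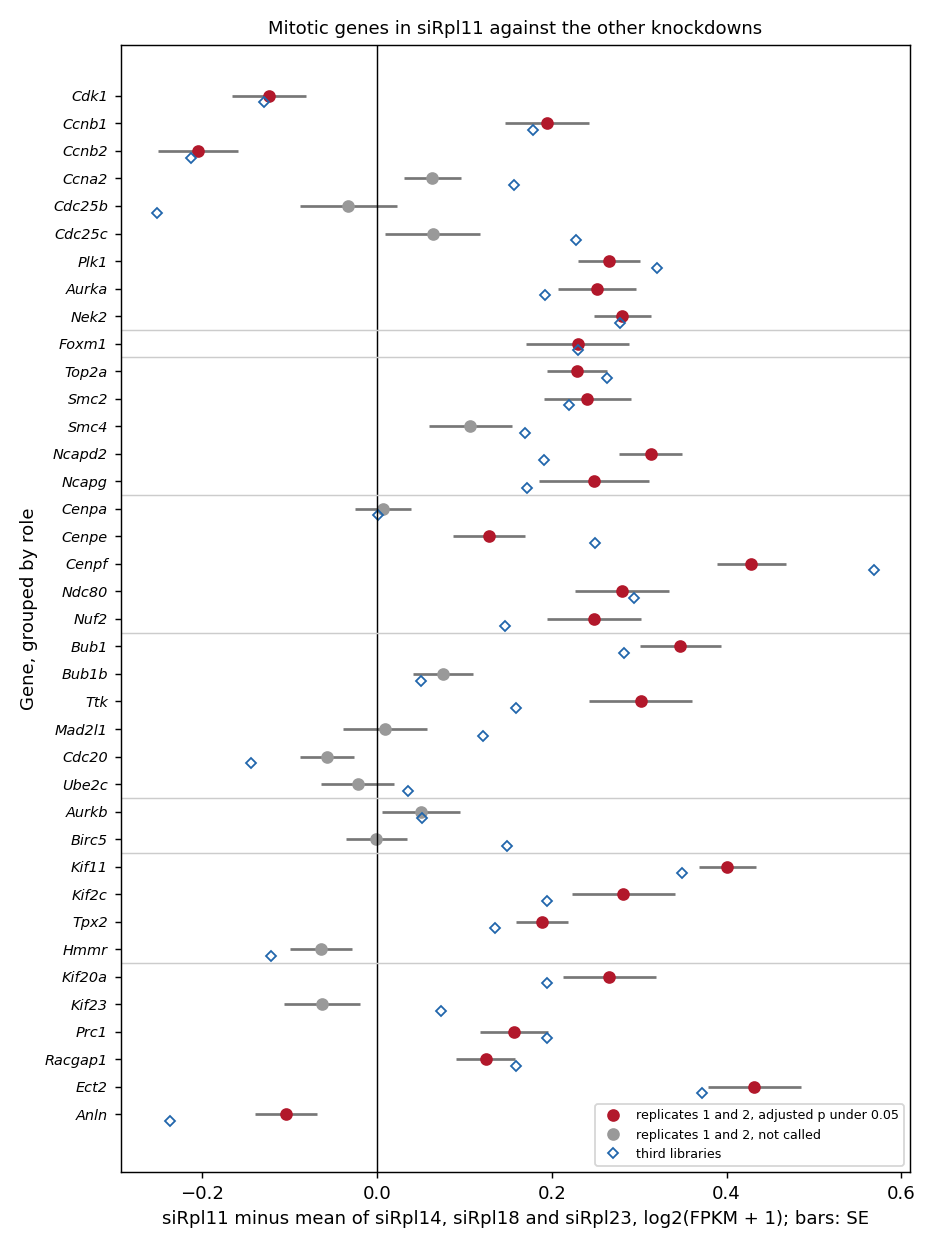
Difference in log2(FPKM + 1) between siRpl11 and the mean of siRpl14, siRpl18 and siRpl23 (horizontal axis) for each of the 38 mitotic genes (vertical axis, grouped by role). Filled circles with SE bars are from replicates 1 and 2, red where the adjusted p was under 0.05, and open diamonds are the third libraries; 22 red circles lie right of 0 and 3 lie left of it.

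Comparisons among siRpl14, siRpl18 and siRpl23 gave fewer calls. Lower values in siRpl14 than in siRpl18 were called for 14 of the 38 genes and higher values for 0, where 5.96% of all genes were lower and 8.3% higher, with 22 lower and 0 higher at an unadjusted p under 0.05. Hmmr differed most, at -0.36 ± 0.04 (adjusted p = 0.00139), followed by Ube2c at -0.32 ± 0.05 (adjusted p = 0.00491), Ect2 at -0.26 ± 0.07 (adjusted p = 0.0292) and Nuf2 at -0.23 ± 0.07 (adjusted p = 0.046). Of these 14, 13 had the same sign in the third libraries, beside 86.4% of all genes called lower. The count was 5 without siRpl14 replicate 1 or siRpl18 replicate 2, 6 without siRpl18 replicate 1, 7 without siRpl14 replicate 2 and 5 with only the groups compared. Between siRpl18 and siRpl23, Ube2c (0.24 ± 0.05, adjusted p = 0.0376) and Hmmr (0.21 ± 0.04, adjusted p = 0.0317) were higher in siRpl18 and 0 genes were lower, against 1.07% and 2.44% of all genes. The count was 0 without any 1 of the siRpl18 or siRpl23 libraries, 1 without any 1 of the siNT or siRpl11 libraries, and 4 with quantile normalization. No gene of the 38 was called by limma between siRpl14 and siRpl23 (0.416% of all genes were lower and 0.098% higher), with 8 lower and 1 higher at an unadjusted p under 0.05. The 95% intervals of these differences ran from -0.33 (Nuf2) to 0.31 (Aurkb), which bounds the differences and does not show that the groups were alike.

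A test over all 4 knockdowns at once, limma's moderated F, called 29 of the 38 genes, beside 60.8% of all genes. The 9 genes it did not call were Cdk1, Ccna2, Cdc25b, Cdc25c, Smc4, Bub1b, Mad2l1, Birc5 and Kif23. Their log2 fold changes against siNT ran from -0.73 (Cdk1 in siRpl11) to -0.02 (Smc4 in siRpl11), and a missed threshold does not show that the knockdowns were alike.

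Another 114 genes of mitosis, including further kinetochore subunits, kinesins, cohesin, the anaphase-promoting complex and microtubule proteins, gave a mixed picture. In siRpl11, 38 of 114 were lower and 38 higher, in siRpl14 53 and 22, in siRpl18 47 and 33, and in siRpl23 46 and 26. Lower genes were thus 33.3%, 46.5%, 41.2% and 40.4% of the list in that order, beside 43.6%, 29.5%, 34.7% and 30.8% of all genes, and higher genes 33.3%, 19.3%, 28.9% and 22.8%, beside 27.3%, 33.3%, 32.8% and 34.9%. Their median log2 fold changes were 0.03, -0.15, -0.06 and -0.08 in that order. Pimreg, a nuclear protein with a known part in the transition from metaphase to anaphase, was at 8.38 and 9.07 FPKM in siRpl11, 11.0 and 11.4 in siRpl14, 10.1 and 10.7 in siRpl18 and 10.5 and 10.7 in siRpl23, against 20.1 and 20.8 in siNT, with log2 fold changes of -1.14 in siRpl11, -0.81 in siRpl14, -0.91 in siRpl18 and -0.88 in siRpl23. Pkmyt1, the kinase that holds Cdk1 inactive, had -0.93 in siRpl11, -0.83 in siRpl14, -0.76 in siRpl18 and -0.71 in siRpl23. Others were higher. Psrc1, a microtubule regulator and known p53 target, had log2 fold changes of 0.68 in siRpl11, 0.94 in siRpl14, 1.10 in siRpl18 and 1.04 in siRpl23, and Gtse1, a mitotic protein known to restrain p53, had 0.61 in siRpl11, 0.72 in siRpl14, 0.99 in siRpl18 and 0.89 in siRpl23. Fam83d, which recruits casein kinase to the spindle, had 0.29 in siRpl11, 0.76 in siRpl14, 1.05 in siRpl18 and 0.90 in siRpl23. The cohesin subunit Stag1 was higher by 0.83 in siRpl11, 0.64 in siRpl14, 0.63 in siRpl18 and 0.78 in siRpl23.

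Regulators of these genes included subunits of the DREAM and B-Myb complexes, E2F and pocket proteins and NF-Y. Of 18, 5 were lower and 6 higher in siRpl11, 9 and 6 in siRpl14, 6 and 5 in siRpl18, and 7 and 5 in siRpl23. Lower genes were 27.8%, 50%, 33.3% and 38.9% of the list in that order, beside 43.6%, 29.5%, 34.7% and 30.8% of all genes. Higher genes were 33.3%, 33.3%, 27.8% and 27.8%, beside 27.3%, 33.3%, 32.8% and 34.9%. Both shares in siRpl18 and the higher share in siRpl14 were thus near those of all genes. Mybl2, which encodes B-Myb, was at 119.6 and 119.6 FPKM in siRpl11, 118 and 112 in siRpl14, 113 and 112 in siRpl18 and 119 and 118 in siRpl23, against 187 and 180.3 in siNT. Every knockdown library was below siNT, and the log2 fold changes were -0.61 in siRpl11, -0.67 in siRpl14, -0.70 in siRpl18 and -0.62 in siRpl23 (SE 0.04 each, with limma adjusted p of 5.72e-07, 3.89e-07, 2.16e-07 and 5.4e-07 in that order). The third libraries of Mybl2 gave 158 FPKM in siRpl11, 141 in siRpl14, 149 in siRpl18 and 139.9 in siRpl23, against 186 in siNT, lower than siNT by smaller amounts. Lin9, a subunit shared by both complexes, was higher only in siRpl11 (0.36 ± 0.07, adjusted p = 0.000951). The pocket protein genes went in different ways, with Rb1 at 0.50 in siRpl11, 1.70 in siRpl14, 2.00 in siRpl18 and 1.85 in siRpl23, Rbl2 at 0.38 in siRpl11, 0.56 in siRpl14, 0.86 in siRpl18 and 0.71 in siRpl23 and Rbl1 at -0.60 in siRpl11, -0.78 in siRpl14, -0.48 in siRpl18 and -0.67 in siRpl23. Nfyc, a subunit of NF-Y, was higher by 0.62 in siRpl11, 0.54 in siRpl14, 0.58 in siRpl18 and 0.61 in siRpl23.

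Of 15 genes of p53 signalling and the G2 checkpoint, 9 were higher and 2 lower in siRpl11, 10 and 3 in siRpl14, 10 and 3 in siRpl18, and 10 and 2 in siRpl23. Higher genes were 60% of the list in siRpl11 and 66.7% in each of the others, beside 27.3% to 34.9% of all genes. Trp53, which encodes p53, had log2 fold changes of 1.54 in siRpl11, 0.71 in siRpl14, 0.95 in siRpl18 and 0.77 in siRpl23, and Mdm2, its ubiquitin ligase and target, had 1.76 in siRpl11, 2.70 in siRpl14, 3.13 in siRpl18 and 3.04 in siRpl23. The largest changes of the list were those of Plk2, a p53 target kinase of the Polo family, at 2.58 in siRpl11, 3.09 in siRpl14, 3.27 in siRpl18 and 3.27 in siRpl23. Cdkn1a encodes the Cdk inhibitor p21, through which p53 is known to engage the DREAM complex. It was at 52.1 and 55.7 FPKM in siRpl11, 116 and 113 in siRpl14, 126 and 132 in siRpl18 and 121 and 109 in siRpl23, against 52.5 and 48.3 in siNT, with log2 fold changes of 0.09 in siRpl11, 1.17 in siRpl14, 1.34 in siRpl18 and 1.17 in siRpl23 (SE 0.06 each, with limma adjusted p of 0.192, 1.75e-07, 5.4e-08 and 1.48e-07 in that order). In the third libraries Cdkn1a was at 58.2 FPKM in siRpl11, 133 in siRpl14, 146 in siRpl18 and 136 in siRpl23, against 42.7 in siNT. There siRpl11 was thus also above siNT, by less than the other knockdowns. The part of these regulators in the levels of the mitotic genes was not tested.

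**Figure D4:**
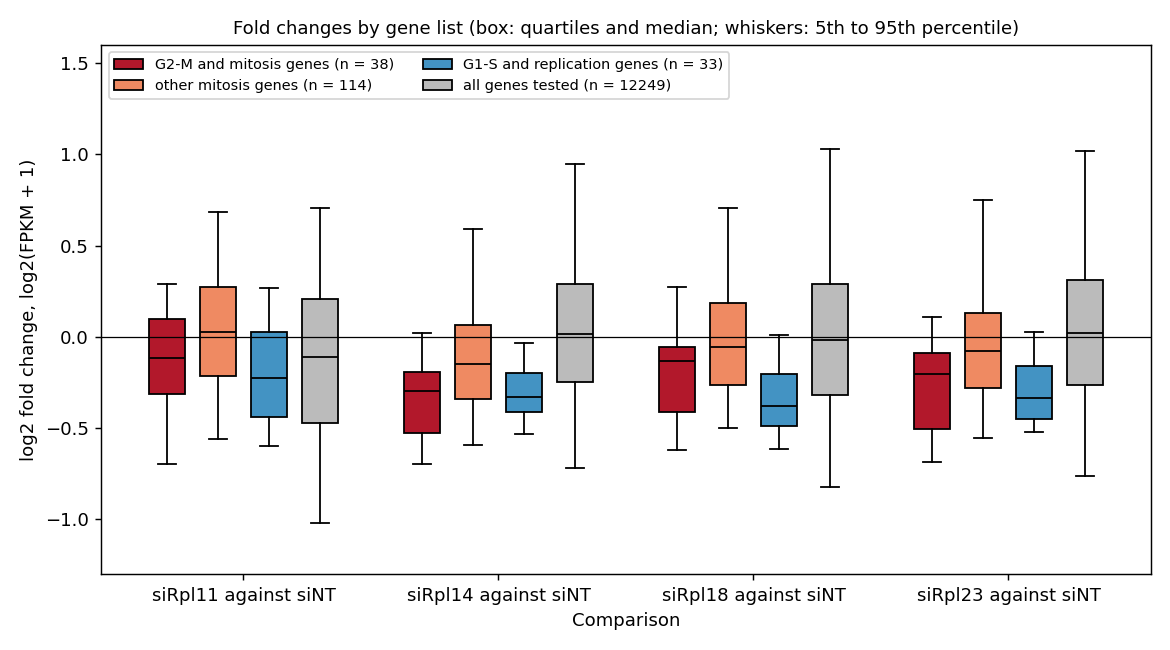
Distribution of log2 fold changes, on the log2(FPKM + 1) scale (vertical axis), for the 38 genes, the 114 other mitosis genes, 33 genes of G1-S and replication and all 12249 genes tested in each knockdown against siNT (horizontal axis). Boxes span the quartiles with the median as a line and whiskers the 5th to the 95th percentile; the box of the 38 genes lies furthest below 0 in siRpl14, with a median of -0.30, and has the same median as all genes, -0.11, in siRpl11.

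The third libraries gave the same sign as replicates 1 and 2 for most calls. In siRpl11, 15 of the 19 genes called lower and 6 of the 7 called higher kept their sign, compared with 92.4% and 90.9% of all genes called. In siRpl14 this held for 28 of 31 lower genes (88.4% of all genes called lower). In siRpl18 it held for 19 of 21 lower and 3 of 3 higher genes (91% and 90.4% of all genes called). In siRpl23 it held for 20 of 25 lower and 2 of 2 higher genes, compared with 88.8% and 89% of all genes called. The calls whose sign turned were those of Cdc25c, Cenpe, Cenpf, Bub1 and Birc5 in siRpl11, Smc4, Cenpe and Prc1 in siRpl14, Cdc25c and Cenpe in siRpl18, and Cdc25c, Cenpe, Tpx2, Hmmr and Prc1 in siRpl23. The median change of the lower genes was smaller in the third libraries, at -0.20 against -0.33 in siRpl11, -0.28 against -0.37 in siRpl14, -0.16 against -0.40 in siRpl18 and -0.27 against -0.42 in siRpl23. These genes were selected by their calls in replicates 1 and 2. Among all genes called lower the median was also smaller, at -0.42 against -0.52 in siRpl11 and -0.33 against -0.41 in siRpl14. In siRpl18 it was -0.35 against -0.44 and in siRpl23 -0.35 against -0.43. Each group has a single library in 1 of the 2 tables, so spread within groups came from replicates 1 and 2 only. The p-values of the next test thus do not measure spread among libraries of the other table or between experiments. The difference between tables was itself tested with limma over all genes. It passed for 4 of the 38 genes in siRpl11 (5.74% of all genes), 4 in siRpl14 (9.23%), 6 in siRpl18 (7.83%) and 5 in siRpl23 (12% of all genes). Cenpf differed between tables in every comparison, Ccnb2 and Cdc25c in 3 each, and Cdk1, Aurkb, Kif23, Top2a, Plk1 and Cenpa in 0. Only 1 library per group stands behind the second table, and the 4 comparisons there share a single siNT library.

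**Figure D5:**
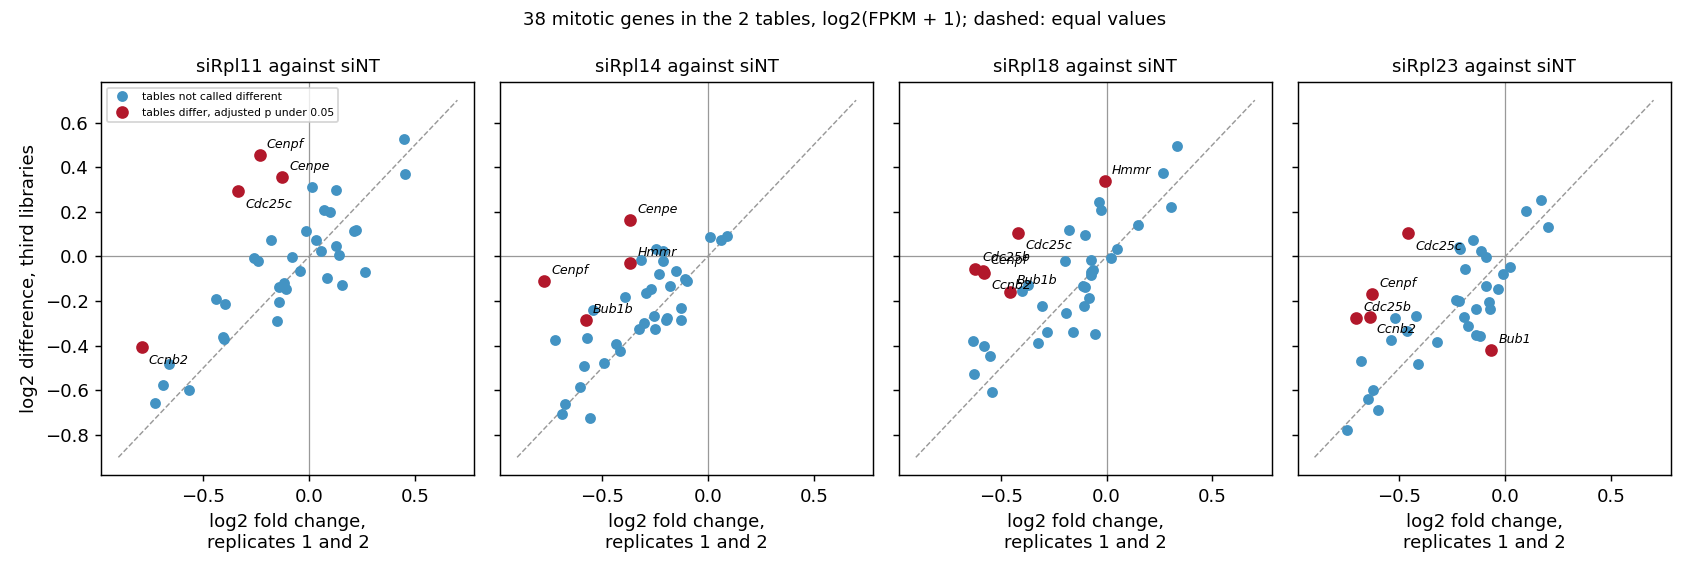
Log2 difference from siNT in the third libraries (vertical axis) against the log2 fold change in replicates 1 and 2 (horizontal axis), both on the log2(FPKM + 1) scale, for the 38 mitotic genes in each knockdown. Red points with names are genes whose 2 values differed at an adjusted p under 0.05, and the dashed line marks equal values; most red points lie above the line, where the third libraries show a smaller or opposite difference.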

How the data were processed

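The mitotic genes and the comparison lists were chosen with earlier results of these data known. RNA of 15 libraries was prepared with a stranded mRNA kit, per the labels' protocols. The authors deposited FPKM per gene, and the submitters' processing notes name STAR, Cuffnorm and build mm9 without their versions, settings, annotation or use of strand. Replicates 1 and 2 are in 1 table and the third libraries in another, each normalized separately, and 2 columns that match no sample were not used. The 12249 of 24819 genes that reached 1 FPKM in 2 or more libraries of the first table, which has 10, were fitted as log2(FPKM + 1) with limma 3.58.1 in R 4.3.3 (a mean per group, empirical Bayes with trend, 5 residual degrees of freedom, n = 2 per group, two-sided), with Benjamini-Hochberg adjustment over all genes tested and a threshold of 0.05. A fold change on this scale understates that of low genes. The fit was tested on simulated data.

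Libraries outside replicates 1 and 2 were compared within their own table, without a test. The difference between tables was tested with limma over all 15 libraries, with spread within groups from replicates 1 and 2 only. FPKM holds no counts, so absolute depth and counting error are unknown and the number of libraries limits the precision. Relative depth was the inverse of the commonest ratio of low values (0.005 to 0.15 FPKM) to those of siNT replicate 1 or, in the second table, siNT. The 12 genes Ccnb1, Cdk1, Plk1, Aurka, Aurkb, Bub1, Cdc20, Top2a, Foxm1, Birc5, Ube2c and Tpx2, and the 5 called members with the largest change in each comparison with siNT, are given in full. Of the other lists, the 3 called genes with the largest change per comparison could be named, and Trp53, Cdkn1a, Mdm2, Mybl2 and Lin9 were named whatever they did. Sox2, Pou5f1 and Utf1 were added as stem cell markers that were above siNT in siRpl11. Alternatives were a pseudocount of 0.1, no filter, a filter at 5 FPKM, quantile normalization, median-ratio scaling, a replicate block, only the groups compared, all 15 libraries with a term for the table, and leaving out each of 10 libraries. Promoters are from RefSeq (GRCm38.p6), a different build from that of the deposited values, and exon overlaps are from GENCODE M21. Figures were drawn with matplotlib 3.10.9 in Python 3.11.15.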

Additional observations from a re-analysis of the deposited data

Results flagged for a closer look

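Limma was fitted over all 15 libraries, with adjustment over all genes. Each group has a single library in 1 of the 2 tables, so spread within groups came from replicates 1 and 2 only. The adjusted p-values here thus do not measure spread among libraries of the other table or between experiments. The difference from siNT was set against itself in the 2 tables for all 38 genes and 4 knockdowns, which makes 152 combinations. It differed in 19 combinations from 8 genes, and in 18 of them the third library stood nearer to siNT or above it relative to replicates 1 and 2. By knockdown these were 4 of the 38 genes in siRpl11, 4 in siRpl14, 6 in siRpl18 and 5 in siRpl23. The same test called 5.74%, 9.23%, 7.83% and 12% of all genes in that order, so siRpl14 and siRpl23 were near those shares. Values here are the log2 fold change of replicates 1 and 2 minus the log2 difference of the third library. Each table has its own siNT, and the 4 comparisons share the single siNT library of the second table, so these values are not independent.

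Cenpf differed in every knockdown, by -0.687 in siRpl11 (adjusted p = 0.00463), -0.664 in siRpl14 (adjusted p = 0.00223), -0.515 in siRpl18 (adjusted p = 0.0101) and -0.461 in siRpl23 (adjusted p = 0.0103). Its siNT level was 20.9 and 21.0 FPKM in the first table and 12.6 FPKM in the second, whereas siRpl11 was at 17.7 FPKM in both. Cdc25c differed by -0.625 in siRpl11 (adjusted p = 0.0198), -0.523 in siRpl18 (adjusted p = 0.0286) and -0.562 in siRpl23 (adjusted p = 0.0163), and it was called lower in replicates 1 and 2 of each of these knockdowns while the third libraries lay 0.29, 0.10 and 0.10 above siNT in that order. Cenpe differed by -0.482 in siRpl11 (adjusted p = 0.0191) and -0.526 in siRpl14 (adjusted p = 0.00802), with the third libraries 0.36 and 0.16 above siNT. Together with Cenpf in siRpl11 these make 6 combinations in which a gene called in replicates 1 and 2 had the opposite sign in the third library.

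Ccnb2 differed by -0.383 in siRpl11 (adjusted p = 0.048), -0.505 in siRpl18 (adjusted p = 0.0178) and -0.368 in siRpl23 (adjusted p = 0.0368), and it was lower than siNT in both tables in all 3. Cdc25b differed by -0.564 in siRpl18 (adjusted p = 0.0249) and -0.427 in siRpl23 (adjusted p = 0.045), where the third libraries differed from siNT by -0.05 in siRpl18 and -0.28 in siRpl23. Bub1b differed by -0.291 in siRpl14 (adjusted p = 0.0357) and -0.298 in siRpl18 (adjusted p = 0.0376), again lower in both tables. Hmmr differed by -0.337 in siRpl14 (adjusted p = 0.0238) and -0.345 in siRpl18 (adjusted p = 0.0267). Bub1 was the exception in direction, at 0.353 in siRpl23 (adjusted p = 0.0451), where the third library was further below siNT. Whether the tables differ by culture, library or normalization cannot be told apart.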

How the results depend on the processing

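All 8 medians of the mitotic genes kept their direction under the 18 alternatives, and 2 moved by more than the spread between replicates, both under median-ratio scaling (siRpl11 against siNT, to -0.02, and siRpl11 against the other knockdowns, to 0.28). Of 85 values for named genes under these alternatives, 1450 results kept direction and side of the threshold, 37 lost a call, 27 gained one and 16 changed sign. Leaving out 1 library gave 16 to 18 lower genes in siRpl11, 27 to 31 in siRpl14, 18 to 20 in siRpl18 and 22 to 25 in siRpl23, and 6 to 7, 0 to 1, 3 to 4 and 1 to 2 higher genes in that order. It gave 21 to 29 genes that differed among the knockdowns, 19 to 26 for siRpl11 against the others, 5 to 15 for siRpl14 against siRpl18, 0 for siRpl14 against siRpl23 and 0 to 2 for siRpl18 against siRpl23. Higher genes numbered 12 in siRpl11 under median-ratio scaling. They numbered 1 in siRpl14 with no filter, quantile normalization or all 15 libraries, and 1 in siRpl23 with no filter, quantile normalization, median-ratio scaling or only the groups compared. Between siRpl18 and siRpl23 the count was 0 with no filter or only the groups compared, 4 with quantile normalization or all 15 libraries and 5 with median-ratio scaling, and between siRpl14 and siRpl18 it was 5 with only the groups compared. The cause was not tested.

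Whether replicate numbers pair the libraries was not settled, and the main fit had no replicate block. Deviations of same-numbered libraries correlated at -0.086 to 0.195 over 10 pairs of groups, 5 of them above 0.1. The summed FPKM was higher in replicate 2 than in replicate 1 in every group. The replicate block gave 1 higher gene in siRpl14, 22 genes for siRpl14 against siRpl18, 1 for siRpl14 against siRpl23 and 5 for siRpl18 against siRpl23, and the other counts stayed within 1.5 times.

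These 16 sign changes were of values that had no call as reported. Outside those 85 values, Anln in siRpl11 against the other knockdowns was called lower and changed sign with median-ratio scaling (0.0051). In siRpl11 against the other knockdowns, quantile normalization gave 0.0247 for Kif23 and 0.142 for Cdc25b (adjusted p = 0.0378), and median-ratio scaling gave 0.045 for Kif23, 0.0695 for Cdc25b, 0.0535 for Cdc20, 0.11 for Birc5 (adjusted p = 0.0212) and 0.0889 for Ube2c. Birc5 there was 0.0493 with all 15 libraries, and leaving out 1 library gave -0.0229 to 0.0216 for Birc5 (0.00926 without siRpl14 replicate 2 and 0.00505 without siRpl18 replicate 2) and -0.0813 to 0.0377 for Ube2c. Against siNT, Tpx2 was -0.00725 in siRpl11 with quantile normalization and 0.0524 in siRpl18 with all 15 libraries, and Ube2c in siRpl14 was -0.00946 with median-ratio scaling and -0.0436 to 0.0691 with 1 library left out. With 2 libraries per group in the fit and depth unknown, the width of the 95% intervals limits what could be resolved, as for Cdk1 in siRpl11 with -0.84 to -0.61 around -0.73.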

Other observations

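Genes of the G1-S transition and of DNA replication, which act earlier in the cycle, were also measured. Of 33, 19 were lower and 6 higher in siRpl11, 26 and 1 in siRpl14, 29 and 2 in siRpl18, and 27 and 1 in siRpl23. Lower genes were 57.6%, 78.8%, 87.9% and 81.8% of the list in that order, beside 43.6%, 29.5%, 34.7% and 30.8% of all genes, and higher genes 18.2%, 3.03%, 6.06% and 3.03%, beside 27.3%, 33.3%, 32.8% and 34.9%. The median log2 fold changes were -0.22, -0.33, -0.38 and -0.34. E2f1, an activator of this gene class, had log2 fold changes of -0.76 in siRpl11, -0.69 in siRpl14, -0.68 in siRpl18 and -0.76 in siRpl23. Cdt1, a licensing factor of replication, was lower in siRpl14, siRpl18 and siRpl23 (-0.53, -0.47 and -0.48) and had no call in siRpl11 (-0.08). Dtl, part of the ligase that degrades Cdt1, had no call in siRpl11 either (0.0088) and was lower in the other 3 (-0.54, -0.44 and -0.45).

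Among embryonic stem cell markers, Nanog was lower in each comparison, at -1.19 in siRpl11, -0.85 in siRpl14, -0.76 in siRpl18 and -0.79 in siRpl23, and Esrrb at -1.19, -0.64, -0.58 and -0.60. Others went the other way. Sox2 was at 276 and 266 FPKM in siRpl11 and 277 and 278 in siRpl18, against 220 and 215 in siNT. In siRpl14 Sox2 was at 242 and 233 FPKM and in siRpl23 at 251 and 250. In siRpl11, Pou5f1 was at 1043 and 1110 FPKM, against 919 and 977 in siNT, and Utf1 at 393 and 367, against 295 and 284. Of the 9 markers, 5 were lower and 3 higher in siRpl11, and 7 were lower and 1 higher in each of siRpl14, siRpl18 and siRpl23. Lower markers were 55.6% in siRpl11 and 77.8% in each of the others, beside 43.6%, 29.5%, 34.7% and 30.8% of all genes in that order. Higher markers were 33.3% in siRpl11 and 11.1% in each of the others, beside 27.3%, 33.3%, 32.8% and 34.9%. The p53 target Btg2, an antiproliferative gene, was higher by 0.67 in siRpl11, 2.16 in siRpl14, 2.31 in siRpl18 and 2.01 in siRpl23.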
